A study of Mus musculus with 22 samples.

Results

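Calcium pumps and intracellular calcium release channels were examined as 10 genes in the brain of mice of known social rank, out of 24421 genes counted. They are the plasma membrane calcium pumps Atp2b1, Atp2b2, Atp2b3 and Atp2b4, the reticulum calcium pump Atp2a2, the ryanodine receptors Ryr1, Ryr2 and Ryr3, and the IP3 receptors Itpr1 and Itpr2. They were chosen by symbol from a list written when the difference between dominant and submissive females was already known, so that difference is given as a description, and nothing is read from the calls in it. All 10 were present in both deposited tables and passed the filter on low counts in every comparison.

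Total RNA of the right brain hemisphere was sequenced from 7 dominant and 7 submissive males and from 4 dominant and 4 submissive females of the inbred strain C57BL/6JOlaHsd. The labels name no transgene and no treatment for any group. The mice were 10 to 12 weeks old, lived 4 to a cage, and were ranked by the tube test, a contest in which the mouse that backs out of the tube loses. Each dominant mouse has a submissive partner from its own cage, except that the library names of female pairs 3 and 4 carry the group names Gr1 and Gr2 in place of a cage number. The paper states that females of intermediate rank were regrouped, 4 together, and ranked again a week later. Whether Gr1 and Gr2 name such groups is not stated in the sources used here. The library names of males begin with um_endres and those of females with jgu_gerber, and the sexes were deposited as separate tables. What the prefixes stand for is not stated. Sex, prefix and table cannot be told apart.

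Calcium signals in neurons arise when calcium enters the cytosol through the cell surface or from the endoplasmic reticulum. Ryanodine receptors open when cytosolic calcium rises, and IP3 receptors open when phospholipase C has made IP3. Plasma membrane pumps then export calcium and reticulum pumps return it to the store, and Purkinje cells of the cerebellum are known for very high amounts of Itpr1.

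The promoters of 3 channels are shown because these genes differed between the tables in opposite directions, Ryr2 and Itpr2 being lower and Ryr1 higher in females. Each is the 250 bases before the RefSeq transcription start on the minus strand of GRCm38.p6, and capitals mark the GC box GGGCGG on either strand. Ryr2 lies at chr13:12106946-12107195, Itpr2 at chr6:146502224-146502473 and Ryr1 at chr7:29125152-29125401.
Ryr2: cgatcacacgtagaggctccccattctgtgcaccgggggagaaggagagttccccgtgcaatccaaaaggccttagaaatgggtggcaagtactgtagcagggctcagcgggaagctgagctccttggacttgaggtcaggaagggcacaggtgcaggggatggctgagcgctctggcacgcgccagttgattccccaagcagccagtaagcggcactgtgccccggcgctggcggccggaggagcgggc
Itpr2: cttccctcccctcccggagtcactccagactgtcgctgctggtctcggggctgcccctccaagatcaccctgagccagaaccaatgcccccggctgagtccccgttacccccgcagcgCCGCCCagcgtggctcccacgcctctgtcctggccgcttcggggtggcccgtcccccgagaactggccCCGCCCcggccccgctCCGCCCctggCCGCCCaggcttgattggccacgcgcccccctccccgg
Ryr1: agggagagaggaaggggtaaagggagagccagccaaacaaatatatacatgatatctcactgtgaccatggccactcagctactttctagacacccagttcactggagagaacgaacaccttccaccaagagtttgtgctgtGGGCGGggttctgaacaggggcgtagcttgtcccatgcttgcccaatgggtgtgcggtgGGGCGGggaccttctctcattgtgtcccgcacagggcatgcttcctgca
Itpr2 holds 4 GC boxes and Ryr1 holds 2, whereas Ryr2 holds 0 in this window. A GC box was present in 32.7% of 32851 promoter windows of the same length. None of these promoters held the TATA box TATAAA or the cAMP response element TGACGTCA, which were present in 12.4% and 1.55% of the windows. Ryr2 had 14 CG pairs, Itpr2 had 22 and Ryr1 had 6, and the median over all windows was 6. The table held a promoter for 6 of the 10 genes.

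The 10 genes are long. Their exons, as counted by the authors on mm10, span 5725 bases in Atp2a2 to 16813 bases in Ryr2, with a median of 9084.5 against 2953 for 15231 genes that passed the filter. Of those genes, 86.4% had fewer exon bases than Atp2a2. Atp2b4 shares 6 exon bases with Mir6903, and the other 9 genes share none with a neighbour. Because of their length, the log2 fold changes and the cage tests were also computed after removing the dependence of each sample's counts on exon length.

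Between 12403943 and 16488762 reads per sample were counted on genes. Dominant male 1 stood apart from all other samples. It had 0 counts of the Purkinje cell gene Pcp2, which allows up to 3 counts or 0.213 CPM (counts scaled for library size), against 19.96 to 46.4 CPM in the other 13 males. The 5 Purkinje cell markers summed to 37.3 CPM in this sample and to 303.5 to 598 CPM in the other males, and the 4 cerebellar granule cell markers to 23.1 CPM against 219 to 484 CPM. Its neuron markers summed to 3462 CPM, inside the range of the other males (3066 to 3536 CPM). Markers of skeletal and heart muscle, tissues that are rich in Ryr1, Ryr2 and Atp2a2, summed to 5.01 to 9.39 CPM over all samples.

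Levels between genes were compared per exon length, as RPKM (CPM per 1000 exon bases). Itpr1 was the most abundant in males, with a median of 204 RPKM (range 133 to 219, n = 14). Atp2a2, the pump that refills the reticulum, followed with a median of 174 RPKM, and Atp2b1, an export pump, with 171 RPKM. The ranges of these 3 genes overlapped. Itpr1 stood above Atp2a2 in 13 of 14 males, and Atp2a2 above Atp2b1 in 8 of 14, so the order of the last pair is not larger than the spread between samples. Atp2b2, an export pump of fast-firing neurons, stood below them in all 14 males with a median of 79.2 RPKM. Ryr2, Atp2b3 and Atp2b4 formed an overlapping set with medians of 36.6, 30.6 and 29.2 RPKM.

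Ryr3, Itpr2 and Ryr1 were the scarcest of the 10, with medians in males of 10.1, 4.76 and 1.33 RPKM and ranges that did not overlap. Ryr1 is best known as the release channel of skeletal muscle. By median the order in females was the same except for Atp2b3 and Ryr2. Atp2b3 (median 28.0 RPKM) stood above Ryr2 (25.4 RPKM) in all 8 samples, whereas Ryr2 stood above Atp2b3 in 13 of 14 males. Itpr1 stood above Atp2a2 in only 5 of 8 females, and Atp2a2 above Atp2b1 in 7 of 8. The other family members were Atp2c1, a Golgi pump, at 57.1 ± 1.27 RPKM in males (SD, n = 14), Atp2a3 at 8.64 ± 2.49 RPKM, Itpr3 at 0.598 ± 0.109 RPKM, Atp2a1 at 0.311 ± 0.0842 RPKM and Atp2c2 at 0.171 ± 0.0561 RPKM.

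**Figure D1:**
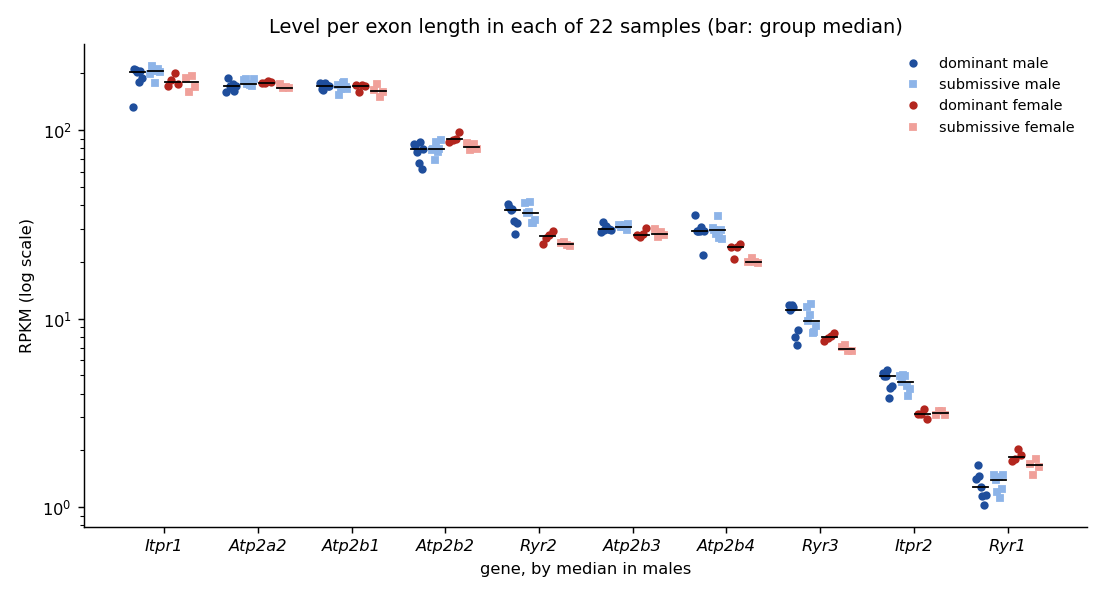
Levels of the 10 genes in RPKM (vertical log axis) in each of 22 samples, with a bar at the median of each group. Itpr1 has a median of 204 RPKM and Ryr1 of 1.33 RPKM in males, and dominant male 1 lies below all other samples for Itpr1.

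The comparison of the tables asks how the 8 females differ from the 14 males. The release channels differed in both directions: Itpr2, Ryr2 and Ryr3 were lower and Ryr1 was higher in females, and of the pumps Atp2b4 and Atp2b3 were lower and Atp2b2 was higher. With edgeR's quasi-likelihood test and Benjamini-Hochberg adjustment over 15233 genes, 7 of the 10 genes passed the threshold of 0.05, and 36.2% of all genes tested did. Of these, 5 were lower, against 17.8% of all genes, and 2 were higher, against 18.4%. DESeq2 called the same 7 genes, with 34.1% of all genes called, and the same 7 had an unadjusted p under 0.05 by edgeR, against 44.9% of all genes. The log2 fold change was above 0 for 2 of the 10 genes and for 50% of all genes, and its median over the 10 was -0.11. Groups overlapped for all 10 genes except Itpr2, which was lower, while 4.03% of all genes did not overlap and were higher in females. In bulk tissue, fewer cells of a type and less RNA per cell cannot be told apart.

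Itpr2, an IP3 receptor known from glia and other cells, had a lowest, median and highest value of 45.0, 56.3 and 62.9 CPM in males and of 34.7, 37.0 and 39.0 CPM in females. The groups did not overlap, which was so for 2.07% of all genes tested in this direction. Its log2 fold change, female minus male, was -0.56 ± 0.0548 (SE), with an adjusted p of 1.53e-08. Of 5 astrocyte markers 2 were lower in females and 0 higher, and their sum was 1553 to 1946 CPM in males and 1585 to 1803 CPM in females. Their part in the difference was not tested.

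Ryr2, the main ryanodine receptor of heart and brain, had a lowest, median and highest value of 470.3, 615 and 696 CPM in males and of 409, 427 and 488 CPM in females. All but the lowest male lay above all females, and the log2 fold change was -0.46 ± 0.0591 (SE, adjusted p = 9.51e-07, edgeR). Ryr3, a ryanodine receptor found in hippocampus and striatum among other regions, had 112, 156 and 184 CPM in males and 104, 114 and 129 CPM in females. These groups overlapped, with a log2 fold change of -0.42 ± 0.0817 (SE, adjusted p = 0.000223, edgeR). Ryr1 went the other way, with 15.8, 20.4 and 25.6 CPM in males and 22.7, 27.2 and 31.0 CPM in females. Its log2 fold change was 0.41 ± 0.0686 (SE, adjusted p = 3.77e-05, edgeR). Of the 5 skeletal and heart muscle markers 2 were tested and both were higher in females, with sums of 5.01 to 8.66 CPM in males and 8.23 to 9.39 CPM in females. The sum of 4 neuron markers was also higher in females, 3744 to 3953 CPM against 3066 to 3536 CPM, and 2 of these markers passed. Striatal neuron markers passed in 2 of 6 cases, both higher, with sums of 333 to 421 CPM in males and 377 to 449.8 CPM in females, and hippocampal neuron markers in 1 of 4, lower, with sums of 33.5 to 42.9 and 35.1 to 40.5 CPM. Of 4 granule cell markers 1 was higher, of 6 endothelium and smooth muscle markers 1 was lower, and of 5 Purkinje cell markers 0 passed. The part of any of these in the differences was not tested.

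Among the export pumps Atp2b4 had the largest difference, with 180.0, 242 and 292 CPM in males and 164, 173 and 206 CPM in females. Its log2 fold change was -0.43 ± 0.0596 (SE, adjusted p = 2.94e-06, edgeR). Atp2b3 differed by -0.11 ± 0.0260 (SE, adjusted p = 0.00206, edgeR) and Atp2b2 by 0.14 ± 0.050 (SE, adjusted p = 0.0356, edgeR). The call of Atp2b3 was lost when the trend on exon length was removed (log2 fold change -0.031, adjusted p = 0.387, edgeR). The call of Atp2b2 was lost without any of 15 of the 22 samples, with a log2 fold change of 0.10 to 0.15 over the 22 fits. In level the pumps went from 206 ± 6.66 to 191 ± 7.57 CPM for Atp2b3 and from 565 ± 55.4 to 622 ± 43.8 CPM for Atp2b2 (SD, n = 14 males and 8 females).

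Atp2b1, Atp2a2 and Itpr1 did not pass the threshold. The 95% interval of the log2 fold change was -0.11 to 0.022 for Atp2b1, -0.063 to 0.053 for Atp2a2 and -0.24 to 0.0057 for Itpr1. Without dominant male 1, Itpr1 was lower in females (log2 fold change -0.17) with an adjusted p of 0.00321 by edgeR. Of 8 alternatives other than leaving out a sample, 1 also called Itpr1 lower. All 3 genes had a positive log2 fold change when the trend on exon length was removed (0.043, 0.049 and 0.022). The size of the ryanodine receptor differences also moved with that trend: Ryr2 became -0.24, Ryr3 -0.20 and Ryr1 0.62, and all 3 still passed.

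**Figure D2:**
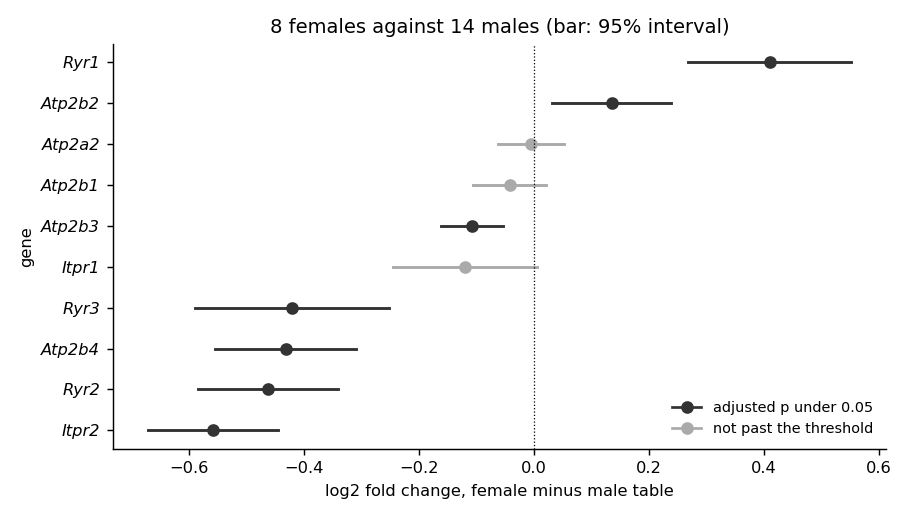
Log2 fold change of each gene between the 8 females and the 14 males (horizontal axis, positive is higher in females), with its 95% interval as a bar. Itpr2, at -0.56, and Ryr1, at 0.41, lie at opposite ends, and the intervals of Itpr1, Atp2b1 and Atp2a2 cross 0.

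Of 64 other calcium handling genes tested, 27 passed the threshold between the tables, 16 higher and 11 lower in females, against 36.2% of all genes called, 18.4% higher and 17.8% lower, with a median log2 fold change of 0.045. Among IP3 production and breakdown genes 10 of 14 passed, 4 higher and 6 lower. Itpkc, a kinase that phosphorylates IP3, was higher by 0.45 on the log2 scale (7.69 ± 0.665 CPM in males and 10.5 ± 1.51 CPM in females), and Gnaq, the G protein subunit that activates phospholipase C, had a log2 fold change of -0.23 (201 ± 11.5 and 172 ± 10.3 CPM). Of 7 sodium/calcium exchangers 5 passed, with Slc24a2 at 1032 ± 53.6 CPM in males and 825 ± 42.4 CPM in females, Slc24a4 at 18.4 ± 2.15 and 13.4 ± 1.29 CPM, and Slc24a3 at 69.0 ± 4.91 and 81.7 ± 2.84 CPM. Mitochondrial calcium genes passed in 5 of 8 cases, 3 higher, among them the uniporter subunit Smdt1 at 57.3 ± 4.98 and 66.4 ± 1.23 CPM, and 2 lower. Of 6 store-operated entry genes 2 were higher in females (Stim2 and Orai1) and of 18 reticulum partners 2 (Asph and Jph3), with 0 lower in each. These 4 genes were named after their values were seen. Jph3 had 187 to 207 CPM in females, 139 to 163 CPM in male replicates 1 to 4 and 189 to 202 CPM in male replicates 5 to 7, so females overlapped only the latter. None of Atp2a1, Atp2a3, Atp2c1, Atp2c2 and Itpr3 passed.

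Same-numbered mice shared a cage or, for some females, a group name. This allows a comparison within a sex: whether mice of a cage resemble each other more than mice of different cages. The paper states that both mice of a cage were killed at the same time, and library numbers run pair by pair. Cage, time of death and library order therefore cannot be told apart. In males Ryr2, Ryr3 and Itpr2 passed the test of cage. With an edgeR F test of the 7 cages in a fit with rank, 3 of the 10 genes passed the threshold, and 5.89% of 14737 genes did. The adjusted p was 0.00282 for Ryr3, 0.00472 for Ryr2 and 0.0384 for Itpr2.

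Ryr3 had 150.1 to 184 CPM in the 8 males of replicates 1 to 4 and 112 to 140.0 CPM in the 6 males of replicates 5 to 7, while females had 104 to 129 CPM. Ryr2 had 613 to 696 CPM in the former and 470.3 to 559 CPM in the latter. Itpr2 had 54.4 to 62.9 CPM and 45.0 to 52.2 CPM. For each of these genes the sets of cages did not overlap, a split that was seen in the values and was not tested. The share of all genes that split in this way was not counted. Pairs of males across the sets had a mean r of -0.163 over all genes, in deviations from the group means. The split is thus not particular to these genes. The cage test does not separate differences between single cages from this split. Over all genes, male cage mates within replicates 1 to 4 correlated in their deviations from the group means with a mean r of 0.125 and other pairs of this set with 0.12, and within replicates 5 to 7 these values were 0.201 and 0.230.

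The cage means of Ryr3 spanned 0.58 on the log2 scale, against a median difference of 0.071 between cage mates. For Ryr2 these values were 0.45 and 0.054, and for Itpr2 0.33 and 0.11. Across the 14 males the log2 CPM of Ryr2 and Ryr3 correlated with r = 0.96, that of Ryr3 and Itpr2 with r = 0.87 and that of Ryr2 and Itpr2 with r = 0.78, as a description over samples that share cages. The split between the sets of male cages enters these values, and r within each set was not computed. In the 8 females r was 0.90 for Ryr2 with Ryr3, -0.25 for Ryr3 with Itpr2 and -0.28 for Ryr2 with Itpr2.

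Of the marker genes tested by cage, 1 of 4 for neurons, 1 of 4 for hippocampal neurons, 2 of 6 for striatal neurons, 1 of 5 for astrocytes and 1 of 6 for endothelium and smooth muscle passed, and 0 of 5 for Purkinje cells and 0 of 4 for cerebellar granule cells. Their part in the result was not tested. DESeq2 called the same 3 genes, with 10.1% of all genes called.

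When each sample's trend on exon length was removed, the calls of these 3 genes were lost. The adjusted p of the cage test by edgeR was 0.0636 for Ryr3, 0.374 for Ryr2 and 0.796 for Itpr2, and Atp2b1 passed in their place (0.0350). Itpr2 also lost its call without replicate 3, 4, 6 or 7. The difference from females remained with either set of males: against replicates 1 to 4 the log2 fold change was -0.59 for Ryr3, -0.58 for Ryr2 and -0.66 for Itpr2, and against replicates 5 to 7 it was -0.16, -0.29 and -0.41.

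**Figure D3:**
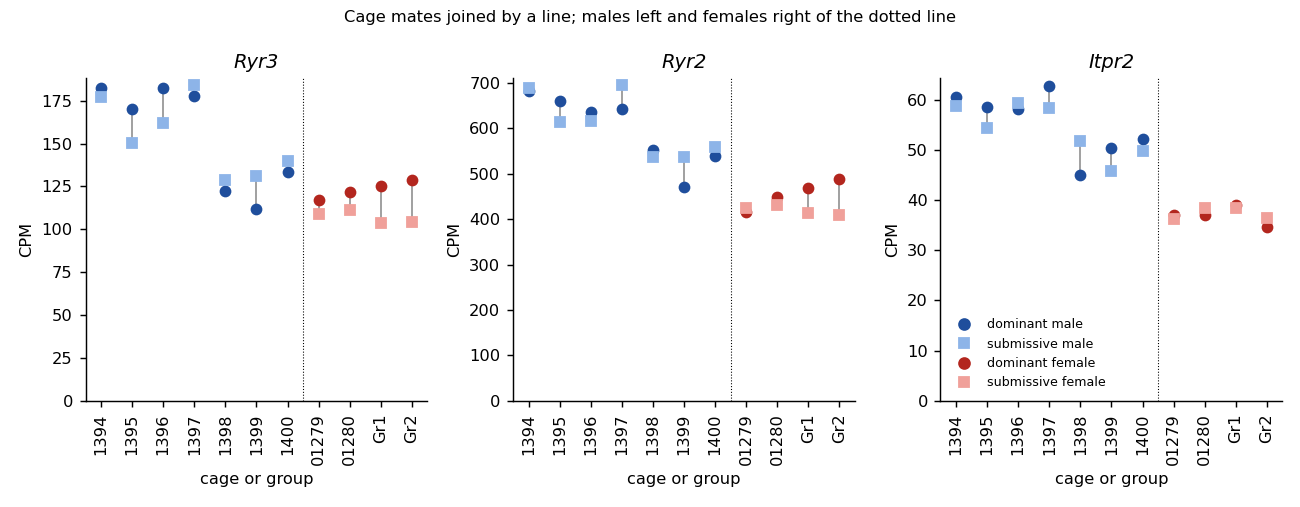
CPM of Ryr3, Ryr2 and Itpr2 (vertical axes from 0) in the dominant and the submissive mouse of each cage or group (horizontal axis), with cage mates joined by a line. For Ryr3 the males of replicates 1 to 4 reach 184 CPM and the lowest male of replicates 5 to 7 has 112 CPM.

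In the 4 female cages or groups 0 of the 10 genes passed the cage test of edgeR, where 0.074% of 14865 genes did. Itpr1 was the member with an unadjusted p under 0.05, which 5.11% of the genes had, and DESeq2 called 0 members. Without the filter on low counts Itpr1 passed (adjusted p = 0.0213, edgeR). Of 61 other calcium handling genes tested in males 7 passed the cage test, against 5.89% of all genes. Jph3, a junctophilin that ties the reticulum to the plasma membrane, had 139 to 163 CPM in replicates 1 to 4 and 189 to 202 CPM in replicates 5 to 7 (adjusted p = 0.00174, edgeR). Gna11, a G protein subunit upstream of phospholipase C, had 67.9 to 80.7 and 84.4 to 97.4 CPM, and Itpka, a neuronal IP3 kinase, had 98.7 to 115 and 117 to 131 CPM. All 3 were lower where Ryr2, Ryr3 and Itpr2 were higher.

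The comparison of rank in males asks whether dominant and submissive cage mates differ. No member passed the test: 0 of 14737 genes passed with edgeR (0% of those tested), 0 with DESeq2, and 0 of the 10 genes had an unadjusted p under 0.05, against 1.32% of all genes. No gene of the 10 had groups that did not overlap, against 0.00679% of all genes lower in dominant males and 0% higher. The log2 fold change was above 0 for 3 of the 10 genes and for 48.6% of all genes. The log2 fold changes, dominant minus submissive, ran from -0.094 ± 0.0790 (SE) for Itpr1 to 0.034 ± 0.0737 for Itpr2, and the adjusted p was 0.999924 by edgeR for all 10. The 95% interval was narrowest for Atp2b3, -0.10 to 0.035, and widest for Ryr3, -0.23 to 0.25. These intervals come from the fit without cage and so include the spread between cages. With cage as a block the log2 fold change was -0.0031 ± 0.0450 (SE) for Ryr3 against an SE of 0.114 without it, -0.027 ± 0.0343 for Ryr2 and -0.11 ± 0.0633 for Itpr1, and 0 of the 10 genes passed. Itpr1 had 1313, 1995 and 2089 CPM (lowest, median, highest) in dominant and 1744, 2025 and 2161 CPM in submissive males. Without dominant male 1 the lowest dominant male had 1778 CPM and the log2 fold change was -0.023. None of 61 other calcium handling genes passed.

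The difference of rank in females was known when the 10 genes were chosen and is given as a description. Ryr3 had 117, 122, 125 and 129 CPM in the dominant females of replicates 1 to 4. Their submissive partners had 109, 112, 104 and 104 CPM. The ranks did not overlap, with the lowest dominant female at 117 CPM and the highest submissive at 112 CPM, and the log2 fold change was 0.19 ± 0.0371 (SE). Atp2b4 had 199, 172, 199 and 206 CPM in dominant and 165, 174, 165 and 164 CPM in submissive females. The dominant female of replicate 2 lay below its cage mate, and the log2 fold change was 0.21 ± 0.0435 (SE).

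Atp2b2 had 622, 642, 648 and 701 CPM in dominant females and 619, 565, 609 and 569 CPM in their submissive partners. Its log2 fold change was 0.14 ± 0.0375 (SE). Atp2a2 had 1012, 1019, 1048 and 1025 CPM in dominant and 1007, 953, 963 and 954 CPM in submissive females (0.074 ± 0.0281). Neither gene's groups overlapped, though in the pair of replicate 1 the cage mates differed by 0.0073 and 0.0069 on the log2 scale. In all, 3 of the 10 genes did not overlap with dominant females higher, against 3.36% of all genes tested, and 0 with dominant females lower, against 2.1%.

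The other release channels were Ryr1, with 26.9, 27.6, 31.0 and 28.9 CPM in dominant and 26.1, 22.7, 27.7 and 25.2 CPM in submissive females (0.16 ± 0.0657), and Ryr2, with 416, 449, 469 and 488 CPM and 424, 430.2, 414 and 409 CPM (0.11 ± 0.0382). Their groups overlapped. Atp2b1, Itpr1, Atp2b3 and Itpr2 had log2 fold changes of 0.058 ± 0.0395, 0.034 ± 0.0528, -0.011 ± 0.0368 and -0.025 ± 0.0499. The log2 fold change was above 0 for 8 of the 10 genes and for 49.1% of all genes tested.

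By edgeR 1 of the 10 genes, Ryr3, was called in females, with 0.0942% of 14865 genes called. By DESeq2 3 of 8 with an adjusted p were called (Ryr3, Atp2b4 and Atp2b2), with 1.49% of 5222 genes called. Nothing is read from these counts, since the list was chosen with them known. With cage as a block edgeR called 1 of the 10 genes and 36 genes in all, against 14 without it. Ryr3 lost its call without dominant female 3 or 4 or submissive female 1, 3 or 4, and its log2 fold change over the 8 fits that left out a sample was 0.17 to 0.22. When the trend on exon length was removed, 0 were called and the log2 fold changes were 0.11 for Ryr3, 0.15 for Atp2b4, 0.025 for Ryr2 and -0.028 for Itpr1. In replicates 1 and 2 alone the log2 fold change of Ryr2 was 0.020 and in replicates 3 and 4 alone it was 0.20, and for Ryr3 these values were 0.11 and 0.27. Replicates 3 and 4 are the pairs named Gr1 and Gr2. Of 62 other calcium handling genes 0 were called, with a median of 0.0055.

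**Figure D4:**
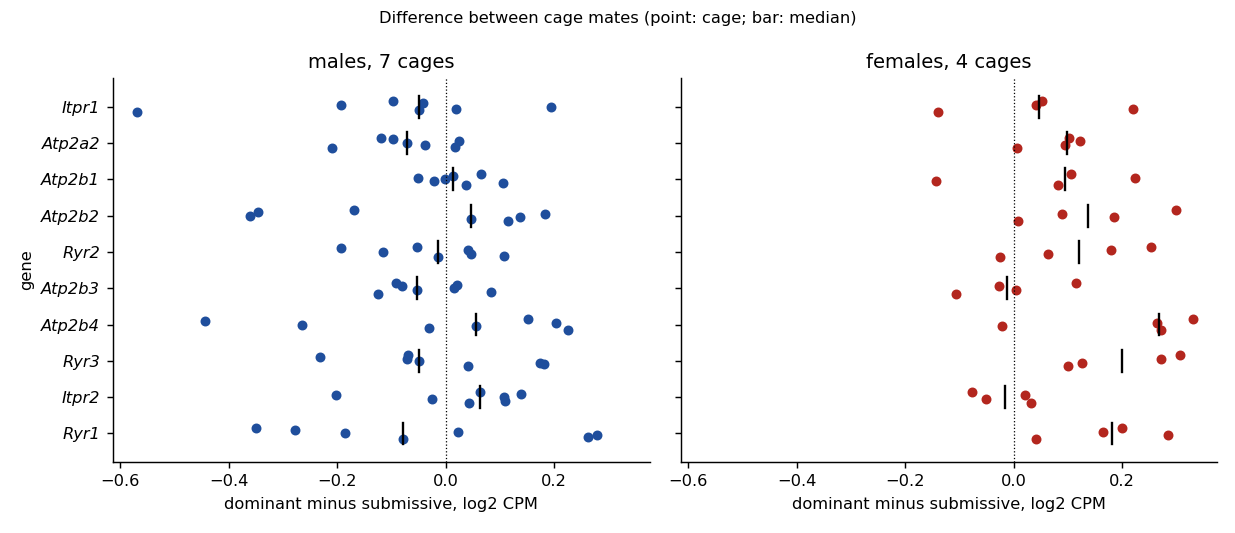
Difference of log2 CPM between the dominant and the submissive mouse of each cage or group (horizontal axis) for the 10 genes. The 7 male cages are on the left, the 4 female cages or groups on the right, and a bar marks the median. Ryr3 is above 0 in 4 of 4 female cages or groups and in 3 of 7 male cages.

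The difference between the sexes in the effect of rank contains the female comparison and is likewise described. It was largest for Atp2b4 (log2 0.22 ± 0.118, SE), Ryr1 (0.21 ± 0.138) and Atp2b2 (0.20 ± 0.10), and for Atp2a2 it was 0.15 ± 0.0562. No member was called by edgeR, where 0% of 15233 genes passed. DESeq2 called 0 as well, and 3.32% of all genes had an unadjusted p under 0.05. Of the 10 genes 1, Atp2a2, had such a p, from which nothing is read. The difference was above 0 for 9 of the 10 genes and for 52.6% of all genes. With the trend on exon length removed it was above 0 for 7 of the 10, and the share of all genes was not counted for that fit. There Atp2b1 was at -0.016, Atp2b3 at -0.026 and Itpr2 at -0.16, with 0.014 for Ryr2 and 0.073 for Ryr3. Atp2a2 was higher in the dominant mouse in 4 of 4 female cages or groups and in 2 of 7 male cages.

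Itpr1 correlated with the markers of cerebellar Purkinje cells across samples, and in males with those of cerebellar granule cells too. In males Pearson's r of its log2 CPM with the log2 summed CPM of Pcp2, Ppp1r17, Car8, Slc1a6 and Homer3 was 0.97 (permutation p = 2e-05, the smallest that 100000 permutations can give two-sided, n = 14) and Spearman's rho was 0.95 (permutation p = 2e-05). In females r was 0.90 (exact permutation p = 0.00293, n = 8) and rho was 0.90 (exact permutation p = 0.00456). Correlations were computed for 10 genes in each sex, and adjusted over these 10 the p of r was 0.0002 in males and 0.0293 in females (permutation tests). With the summed markers of granule cells r was 0.95 in males (permutation p = 0.0002, adjusted 0.002) and 0.72 in females (exact permutation p = 0.0547, adjusted 0.274). The permutations treat samples as exchangeable, although same-numbered samples share a cage or group, and this holds for all correlations with markers.

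Dominant male 1 had the lowest marker sum and the least Itpr1, 1313 CPM. Without it r was 0.96 (permutation p = 2e-05, n = 13). Leaving out the 2 samples with the most extreme marker sums gave r = 0.94 in males (permutation p = 0.00014, adjusted 0.0014, n = 12) and 0.96 in females (exact permutation p = 0.00556, adjusted 0.0556, n = 6), where the adjusted value no longer passed the threshold. These 2 were dominant male 1 and submissive male 4 among males. Within replicates 1 to 4 r was 0.98 (exact permutation p = 0.000397, adjusted 0.00397, n = 8). Within replicates 5 to 7 it was 0.97 (exact permutation p = 0.0167, adjusted 0.167, n = 6), which did not pass, and it was 0.54 there without the 2 most extreme samples. Atp2a3, a reticulum pump also known from Purkinje cells, had 5.83 CPM in dominant male 1 and 28.8 to 48.2 CPM in the other males.

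Atp2b4 went the opposite way in males, with r = -0.61 (permutation p = 0.00042, adjusted 0.0021, n = 14) and rho = -0.54 (permutation p = 0.0506, adjusted 0.169). Leaving out the 2 most extreme samples gave r = -0.45 (permutation p = 0.0510, adjusted 0.251), which did not pass, while leaving out dominant male 1 alone gave r = -0.65 (permutation p = 0.00404, adjusted 0.0202). With granule cell markers Atp2b4 had r = -0.58 (permutation p = 0.00766, adjusted 0.0383) and Atp2b3 had r = 0.56 (permutation p = 0.0134, adjusted 0.0447) in males. In females the r of Atp2b4 with the Purkinje cell markers was -0.18 (exact permutation p = 0.647, n = 8). Atp2b1 had r = -0.43 (permutation p = 0.0210, adjusted 0.0701) and rho = -0.73 (permutation p = 0.00434, adjusted 0.0217) in males. For the other 7 genes the adjusted permutation p of r was 0.102 or more in males, and for the other 9 it was 0.548 or more in females.

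**Figure D5:**
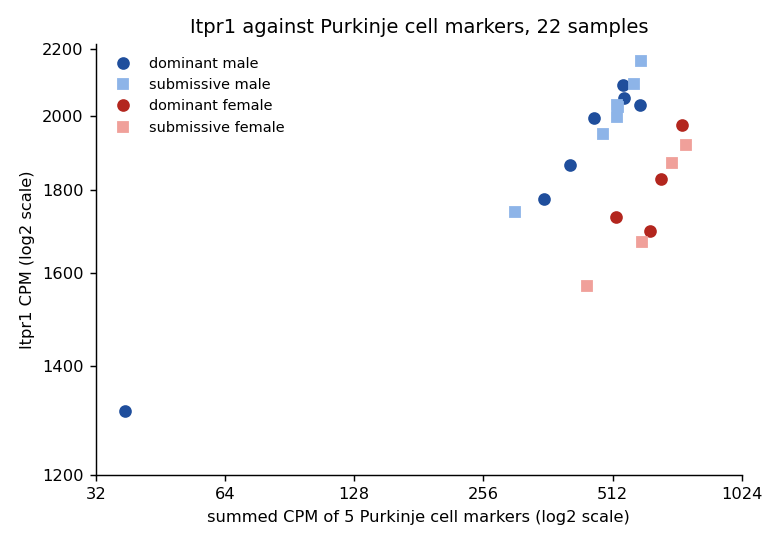
CPM of Itpr1 (vertical log2 axis) against the summed CPM of 5 Purkinje cell markers (horizontal log2 axis) in 22 samples. Dominant male 1, at 37.3 and 1313 CPM, lies far to the left, and the ranges of the marker sum overlap between the other males (303.5 to 598 CPM) and the females (447 to 759 CPM).

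The genes most like each member were taken from 11813 genes across the 14 males by r of log2 CPM, as a description over samples that share cages. For Itpr1 they were Fam107b, Cep76 and Rgs8, with r of 0.99 each, 0.95 to 0.96 without dominant male 1 and 0.86 to 0.97 in females. For Atp2b4 they were Ptprt, Mkl2 and Grin2b, the last a glutamate receptor subunit, with r of 0.94 to 0.96 in males and 0.90 to 0.97 in females. For Atp2b2 they were Unc13a, which primes synaptic vesicles, Adgrl1 and Cacna1i, a calcium channel, with r of 0.96 to 0.97 in males and 0.79 to 0.90 in females.

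Ryr2 was most like Zfp318, Erbb4 and Csmd1 (r = 0.98 each in males and 0.80, 0.34 and 0.77 in females), and Ryr3 most like Tnik, Abcc5 and Leng8 (0.97 to 0.98 in males and 0.67 to 0.75 in females). Itpr2 was most like Itga8, Dock9 and Srsf11 (0.94 to 0.96 and 0.36 to 0.72), and Ryr1 most like Setbp1, Diap1 and Safb2 (0.91 to 0.95 and -0.0019 to 0.90). Atp2a2 was most like Sorl1, Slc6a8 and Slc43a2 (0.87 to 0.92 and -0.26 to 0.85), Atp2b1 most like Pak7, Wdr73 and Dgkb (0.89 to 0.94 and -0.058 to 0.88), and Atp2b3 most like Flt1, Ptprm and Igf2 (0.85 to 0.87 and -0.45 to 0.55).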

How the data were processed

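The deposited values are counts of reads per gene, which the authors made by trimming with cutadapt 1.15 and bbduk, mapping to mm10 with STAR 2.6.0a and counting on an iGenomes annotation with featureCounts 1.6.2. The strand setting and how reads with several matching places were handled are not given in the sources used here. Libraries were stranded and depleted of ribosomal RNA.

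CPM were computed from these counts on TMM factors of edgeR 4.0.16 (R 4.3.3) over 22 samples, and RPKM from the exon lengths in the tables. Genes were kept by edgeR's filter (minimum count 10, minimum total 15) and tested with its quasi-likelihood test over all genes, threshold 0.05. Total counts were 12403943 to 16488762, and limits at a count of 0 cover counting error only. The p-values of the rank and table tests set differences against the spread between these animals. Those of the cage test set cages against the spread within cages.

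The 10 members and all lists were chosen with earlier results of these data known. Named genes were the members, the other members of their families, the marker genes, up to 3 other calcium handling genes per direction and comparison with the smallest p among those called, and the 3 genes most correlated with each member across males (mean of at least 5 CPM, prior count 2). Correlations used permutation tests, two-sided, in scipy 1.17.1. Promoters came from RefSeq.

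By their library names same-numbered samples share a cage number, or the group name Gr1 or Gr2 in female pairs 3 and 4. Their deviations from the group means correlated across genes with a mean r of 0.157 in males and 0.0211 in females, against -0.0261 and -0.00703 for other pairs. In males this contrast came with the split of replicates 1 to 4 from 5 to 7, since pairs across the sets had a mean r of -0.163 and cage mates were about as alike as other mice of their set. Alternatives were DESeq2 1.42.0, its size factors in edgeR, no filter, the robust prior, the trend on exon length (loess, span 0.3), cage as a block, all 22 samples in 1 fit, and each sample or cage left out. Chosen after the data were seen were the subsets of cages and DESeq2's default filtering level of 0.1 beside the level of 0.05 used first. Counts at both levels had been seen when the default was added.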

Additional observations from a re-analysis of the deposited data

Results flagged for a closer look

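Among 72 groups examined, the 10 genes and 8 marker sums in 4 groups each, 6 values lay far from the rest of their group, where chance gives about 1 in 20 groups. Itpr1 was 1313 CPM in dominant male 1, against 1778 to 2089 CPM in the other dominant males. The summed Purkinje cell markers were 37.3 CPM in the same sample (355 to 594 CPM in the others), and its astrocyte markers 1553 CPM (1791 to 1935 CPM). In submissive male 4 the Purkinje cell markers summed to 303.5 CPM, against 486 to 598 CPM in the other submissive males. Atp2b4 was 174 CPM in submissive female 2, against 164 to 165 CPM in the other 3. Muscle markers summed to 8.45 CPM in dominant male 5, against 5.54 to 6.75 CPM in the others. No explanation of these values was tested.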

How the results depend on the processing

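Of 1875 recomputed values 1756 kept their direction and their side of the threshold or moved by less than the limits used, 26 lost a call, 4 gained one, 59 moved and 30 changed sign. The 30 cover rank in males and the tables. Among the values given as a description, 9 of those for rank in females and 3 of those for the interaction also changed sign, and these are counted above by the size of their move. The members called for rank in males and for the interaction of rank and sex stayed at 0, and those between the tables were 6 to 8, under every alternative run.

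For rank in females the members called were 3 with DESeq2 (78 genes in all), 2 with DESeq2 at its default filtering level (65 genes), 2 without a filter (84 genes, with 1 other calcium handling gene), 0 with the length trend removed (2 genes), 0 with the replicate block and the trend removed (8 genes), 0 with all 22 samples in 1 fit (0 genes), 0 in replicates 1 and 2 alone (5 genes) and 3 in replicates 3 and 4 alone (120 genes, with 2 others), against 1 member and 14 genes. The replicate block gave 1 member and 36 genes. With a sample left out, members ranged from 0 to 2, all genes from 0 to 77 and other calcium handling genes from 0 to 1. The DESeq2 count depends on its filtering level. The level of 0.05 came first, and its default was added after the counts had been seen, as were the subsets of replicates.

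For cage in males the length trend left 1 member (Atp2b1) and 483 genes, against 3 and 868. Without replicate 1 there were 1841 genes, and without replicate 3, 5, 6 or 7 there were 482, 474, 375 and 423. With a cage left out, other calcium handling genes from 4 (without replicate 6) to 15 (without replicate 1), against 7. For cage in females, dropping the filter gave 1 member, 3 other calcium handling genes and 99 genes, both DESeq2 levels gave 5 genes, against 11, and with a cage left out the counts ran from 2 to 31 and 0 to 2 others. The members correlated with the Purkinje cell markers in males were 2, and 1 within replicates 1 to 4 and 0 within replicates 5 to 7. In females they were 1, and 0 with granule cell markers.

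Some signs changed. For rank in males these were Atp2b4 (0.010 with the length trend removed, 0.0064 with the replicate block too), Ryr2 (0.015 and 0.015, and 0.0027 in replicates 1 to 4 alone), Ryr1 (0.072 in replicates 1 to 4 alone) and Ryr3 (-0.0031 with the replicate block, -0.12 in replicates 5 to 7 alone). With a sample left out, rank in males ran from -0.0036 to 0.033 for Atp2b1, -0.059 to 0.053 for Atp2b4, -0.11 to 0.011 for Ryr1, -0.057 to 0.028 for Ryr2, -0.036 to 0.075 for Ryr3 and -0.0026 to 0.078 for Itpr2, and the table difference of Atp2a2 ran from -0.024 to 0.0083. Between the tables, removing the length trend turned Atp2b1 to 0.043, Atp2a2 to 0.049 and Itpr1 to 0.022, and Atp2a2 was 0.0084 against male replicates 5 to 7. With a sample left out, Atp2b2 kept its call between the tables without dominant male 1, 2 or 5, submissive male 2, 4 or 7 or submissive female 2, and lost it without any other. It also lost it against male replicates 5 to 7 alone (0.12, adjusted p = 0.0957, edgeR). The cause was not tested.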
